A study of Zea mays with 6 samples.

Results

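The genes described here encode the photosystems, their light-harvesting antennae and the small subunit of Rubisco. They were chosen by annotation: 84 of the 42508 genes in the count table whose description names a chlorophyll a-b binding protein, photosystem I or II, an oxygen-evolving protein or the small subunit of ribulose bisphosphate carboxylase, or whose Pfam domains include the chlorophyll a-b binding domain. By role, 25 encode antenna proteins of photosystem II, 9 antenna proteins of photosystem I, 15 subunits of photosystem I, 12 subunits of photosystem II, 6 extrinsic proteins of the oxygen-evolving complex, 11 assembly and repair factors, 3 stress-related antenna relatives and 2 the small subunit of Rubisco. The last gene is annotated as an NADP-dependent malic enzyme and was included by its Pfam domain alone.

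Polyadenylated RNA was sequenced from immature ears of 2 nearly isogenic recombinant inbred lines of maize from a cross of teosinte with maize, grown under standard conditions. A12 carries the teosinte segment of qKRN5.04b (chromosome 5, named for kernel row number), and B46 the maize segment. Ears of 1.5 to 2.0 mm were dissected at the V6 to V9 leaf stages, between the inflorescence meristem and the spikelet pair meristem. Each line is represented by 3 libraries, each a pool of at least 50 plants, and the labels give a single batch; each line is 1 recombinant inbred genotype, so the segment and any other difference between the lines cannot be told apart.

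In leaves, light-harvesting proteins bind most of the chlorophyll and pass excitation to photosystem II, which oxidises water, and to photosystem I, which reduces ferredoxin. The nuclear genes of this machinery are known to be induced together by light and during the change from proplastid to chloroplast. A young ear enclosed in its husk is a largely non-green tissue, and there such genes are usually weakly expressed.

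The libraries held 14625831 to 15675012 counted reads each, and the members received 0.0244% to 0.102% of them. Summed over the 84 members, B46 had 331.9, 363.2 and 452.0 CPM (TMM-scaled counts per 1000000) in replicates 1, 2 and 3, and A12 had 1012, 254.1 and 461.4. A12 replicate 1 was thus the highest library and A12 replicate 2 the lowest, with all of B46 between them. The mean was 382.4 ± 62.3 CPM in B46 and 575.9 ± 392 in A12 (SD, n = 3 each). A12 replicate 1 stood at 2.65 times the B46 mean, replicate 2 at 0.664 times and replicate 3 at 1.21 times, whereas the highest B46 library was 1.36 times the lowest. The share of reads was 0.102% in A12 replicate 1 (95% Wilson interval 0.0999% to 0.103%) and 0.0244% in A12 replicate 2 (0.0236% to 0.0252%), so these differ by more than counting error. Such intervals cover counting error only, and the difference between single A12 libraries has no replicate check. In a pooled ear, fewer cells that express these genes and less RNA per cell cannot be told apart.

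**Figure D1:**
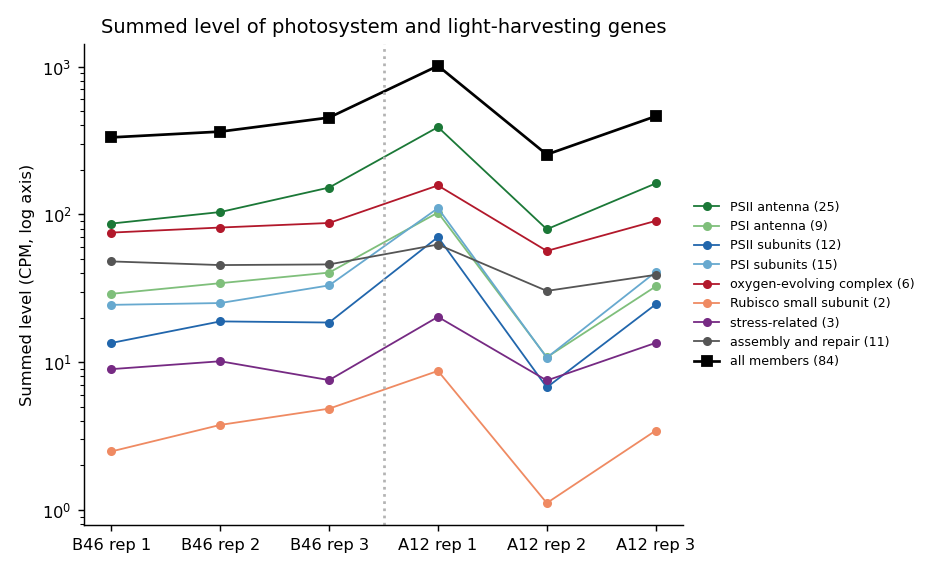
Summed level of the members (CPM, log axis) in each of the 6 libraries, by role, with the number of genes in parentheses; the malic enzyme is included only in the line for all members. In A12, replicate 1 is highest and replicate 2 lowest for every role, with all members at 1012 and 254.1 CPM.

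Expression was low and uneven among the members. No read was counted for 11 members in any library, and 8 had 1 to 9 reads in all. A mean of at least 1 CPM was reached by 57 members, which were used for the medians and orders given here. Per gene length, the highest mean over the 6 libraries was 53.1 FPKM for Zm00004b036722 (chlorophyll a-b binding protein 1), followed by 33.0 FPKM for Zm00004b012312 (oxygen-evolving enhancer protein 1). The median tested member lay at percentile 29.2 of all genes tested by FPKM.

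The spread within A12 was shared by most members. Among the 57, A12 replicate 1 was the highest of the 6 libraries for 51 (89.5%, against 26.4% of the 21947 genes at a mean of at least 1 CPM), and A12 replicate 2 was the lowest for 43 (75.4%, against 19.0%). The order replicate 1, replicate 3, replicate 2 within A12 was found for 54 members (94.7%, against 28.6%). In 39 members (68.4%, against 9.50%) A12 replicate 1 lay above all of B46 and A12 replicate 2 below all of it. All members were read in the same 6 libraries, so these counts do not represent independent observations.

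The median member differed from the B46 mean by 1.35 in A12 replicate 1, by -0.64 in replicate 2 and by 0.25 in replicate 3, on the scale of log2(CPM + 1); the same medians over all genes were -0.02, -0.01 and -0.01. Within B46 the medians were -0.16, -0.05 and 0.16. The median SD of a member on this scale was 1.12 within A12 and 0.29 within B46, against 0.19 and 0.13 over all genes, and 53 of the 57 members varied more within A12 than within B46. The highest of the 6 libraries was at least 10 times the lowest for 23 members (40.4%, against 3.66% of all genes) and under 2 times the lowest for 6 (10.5%, against 71.6%).

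**Figure D2:**
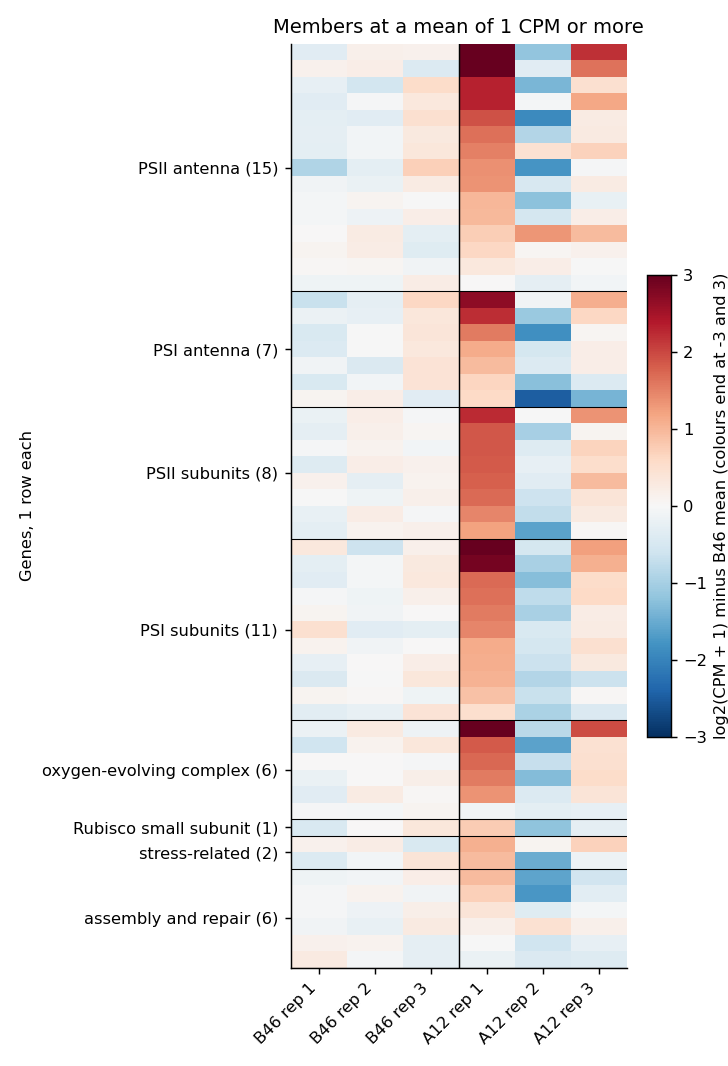
Each row is a member with a mean of at least 1 CPM (56 genes, without the malic enzyme), grouped by role and ordered by A12 replicate 1; colour gives log2(CPM + 1) minus that of the B46 mean. Red dominates A12 replicate 1 and blue A12 replicate 2, with medians of 1.35 and -0.64 over the 57 members.

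The comparison of A12 with B46 asks which genes differ with the line. Of the 56 members that passed the low-count filter, 1 was called higher in A12 and 0 lower by edgeR's quasi-likelihood test at an adjusted p under 0.05 (1.79%, against 9.86% of the 22741 genes tested, 4.61% higher and 5.25% lower). At an unadjusted p under 0.05, 7 members were higher and 1 lower. These 8 of 56 members were a smaller share than the 6175 of 22741 genes tested that passed in either direction. DESeq2 called 6 of 73 members higher (8.22%, against 5.62% of the genes it fitted) and 0 lower. Among these, Zm00004b011036 and Zm00004b020942 had not passed the edgeR low-count filter. Zm00004b020942, a psbY gene, had 3, 9 and 5 reads in the B46 pools and 79, 5 and 38 in A12. The median log2 fold change was 0.74 for members against 0.01 for all genes, and 45 of 56 were above 0, but the median SE was 0.65 against 0.17. For 3 members all values of A12 lay on the same side of all values of B46 (5.36%, against 33.4% of all genes tested). Of the 28 members not tested, 17 had reads, with at most 139 in all.

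The contrast depended on which A12 library was included. Without A12 replicate 2, edgeR called 12 of 60 members higher (20.0%, against 4.96% of all genes) and the median log2 fold change was 1.18; 3 of the 12 had not passed the low-count filter with all libraries. Without A12 replicate 1, 1 of 56 was called higher and 1 lower (backgrounds of 10.4% and 8.88%), and the median was -0.12. Without B46 replicate 1, 2 or 3 or A12 replicate 3, edgeR called 0 of 60, 60, 59 and 57 members. At an unadjusted p under 0.05, 2, 3, 7 and 7 of them were higher and 0 lower. Calls over all genes fell too in these fits, to 714, 432, 1410 and 401, against 2242 with all libraries. The 0 calls are therefore not read as a result about the members.

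**Figure D3:**
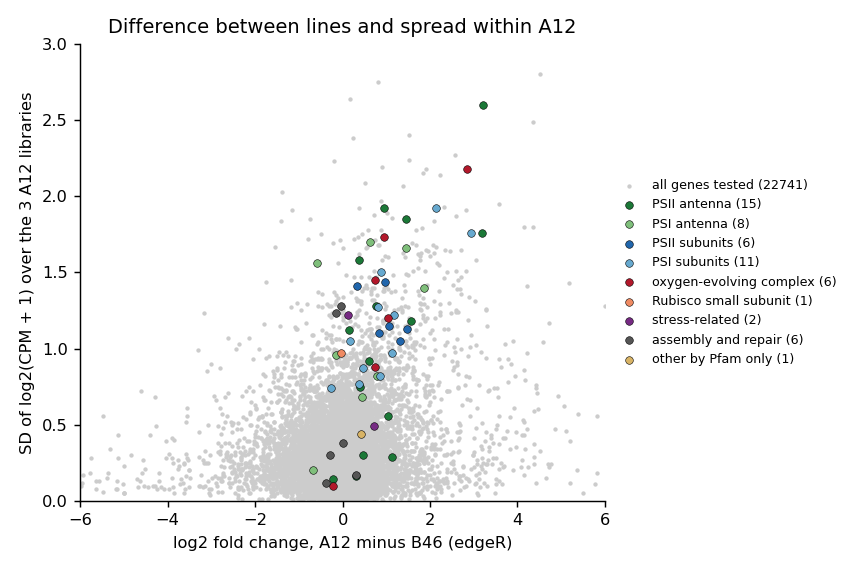
SD of log2(CPM + 1) over the 3 A12 libraries against the log2 fold change from edgeR, for the 56 tested members (coloured by role) and all 22741 genes tested (grey; genes beyond the axes are not shown). Most members lie above the bulk of genes in spread, with a median SD of 1.12 over the 57 members at a mean of at least 1 CPM, and to the right of 0 in fold change.

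Antenna proteins of photosystem II hold the trimeric LHCII, encoded by many near-identical genes, and the minor antennae CP24, CP26 and CP29. The most abundant gene of the group, Zm00004b036722, had 291, 462 and 943 reads in the B46 pools and 1416, 143 and 551 in A12. A12 replicate 1 was 9.70 times replicate 2 (95% exact interval 8.16 to 11.6), and B46 itself varied 3.20-fold for this gene. Its log2 fold change was 0.38 (SE 0.74, edgeR adjusted p = 0.78). Zm00004b031288, a further antenna gene named here for its spread, had 25, 43 and 42 reads in the B46 pools and 747, 7 and 220 in A12. Its ratio of A12 replicate 1 to replicate 2 was 105 (50.5 to 261), and its log2 fold change was 3.21 (SE 1.18, adjusted p = 0.13, edgeR). Zm00004b004435 and Zm00004b004438 share an annotation and lie near each other on chromosome 1 without overlapping. Whether the authors' counting split reads between these genes was not tested. In A12, Zm00004b004435 had 254, 6 and 64 reads and Zm00004b004438 had 253, 4 and 73.

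The minor antennae included the only member called by edgeR with all libraries. Zm00004b020412 (chromosome 4, 10895226 to 10901671), annotated as CP26, which connects LHCII to the photosystem II core, had 116, 144 and 93 reads in the B46 pools and 196, 294 and 243 in A12. Every A12 library was above every B46 library, and replicate 2 was the highest of A12, unlike in most members. Its level was 7.59 ± 1.59 CPM in B46 and 16.5 ± 3.61 in A12 (SD, n = 3), and it rose by 1.12 as a log2 fold change (SE 0.22; adjusted p = 0.024 by edgeR). The call was lost without B46 replicate 1, 2 or 3 or A12 replicate 3, with edgeR adjusted p of 0.09, 0.066, 0.061 and 0.092. In those fits the log2 fold change was 1.12, 1.28, 0.98 and 1.16. The remaining alternative fits kept the call.

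The other CP26 gene had another order of the A12 libraries. Zm00004b010204, on chromosome 2, had 200, 192 and 262 reads in the B46 pools and 546, 141 and 262 in A12. The ratio of A12 replicate 1 to replicate 2 was 3.79 (3.15 to 4.60) for it and 0.653 (0.542 to 0.785) for the chromosome 4 copy. CP29.1, also a minor antenna, has 2 genes among the members. Zm00004b037021 had 145, 172 and 227 reads in the B46 pools and 574, 84 and 223 in A12, so the lines overlapped. Zm00004b009689 had 124, 150 and 203 reads in the B46 pools and 457, 207 and 266 in A12, without overlap, and its log2 fold change of 1.03 (SE 0.32) did not pass in edgeR with all libraries (adjusted p = 0.085). It passed in DESeq2 (adjusted p = 0.018) and in edgeR without A12 replicate 2 (adjusted p = 0.046). The LHCB7 pair, Zm00004b035634 and Zm00004b035635, stayed between 12 and 25 reads in every library.

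Antenna proteins of photosystem I (LHCI) form a belt at one side of that complex. Zm00004b009760 had 227, 255 and 166 reads in the B46 pools and 317, 24 and 72 in A12. Here A12 replicate 3 was also below all of B46, and without A12 replicate 1 the gene was lower in A12 by edgeR, with a log2 fold change of -2.12 (adjusted p = 0.012); with all libraries it was -0.58 (SE 0.75, adjusted p = 0.67). Zm00004b012975 had 36, 53 and 111 reads in the B46 pools and 485, 56 and 160 in A12, where replicate 2 lay within the range of B46. Zm00004b021537 had 54, 76 and 113 reads in the B46 pools and 129, 23 and 57 in A12. Summed over the 9 genes, A12 replicate 1 was 9.54 times replicate 2.

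Photosystem I subunits showed the order of the A12 libraries without exception among the 11 genes at a mean of at least 1 CPM. The same held for 7 photosystem I antenna, 8 photosystem II subunit and 6 oxygen-evolving complex genes at that level. The summed level of the photosystem I subunits was 24.42, 25.12 and 33.07 CPM in B46 and 110.2, 10.72 and 40.68 in A12, a 10.3-fold range within A12. Zm00004b005514, annotated as subunit II (PsaD, which docks ferredoxin), had 100, 124 and 144 reads in the B46 pools and 266, 68 and 154 in A12. Subunit III (PsaF, on the plastocyanin side) is encoded by Zm00004b011144, with 65, 84 and 112 reads in the B46 pools and 302, 25 and 134 in A12. For psaK, a small membrane subunit encoded by Zm00004b034786, the counts were 23, 30 and 43 in B46 and 311, 8 and 84 in A12. None of the 11 tested genes was called by edgeR and 0 had an unadjusted p under 0.05; log2 fold changes ran from -0.26 to 2.93. DESeq2 called a further PsaD gene, Zm00004b011036, with 0, 0 and 2 reads in the B46 pools and 36, 1 and 12 in A12, which did not pass the edgeR filter.

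Photosystem II subunits encoded in the nucleus are small proteins around the plastid-encoded core. The PsbX gene Zm00004b037579 had 70, 100 and 102 reads in the B46 pools and 218, 18 and 92 in A12. A second PsbX gene, Zm00004b024968, had 30, 27 and 36 reads in the B46 pools and 128, 14 and 45 in A12. Zm00004b020728, the 10 kDa polypeptide (PsbR, which helps to hold the oxygen-evolving proteins), had 38, 58 and 53 reads in the B46 pools and 209, 16 and 53 in A12. In all of these, A12 replicate 1 was highest and replicate 2 lowest of the 6 libraries. The summed level of the 12 genes was 10.4 times as high in A12 replicate 1 as in replicate 2. The 4 entries annotated as the D1 and CP47 proteins, which plants encode in the plastid, had at most 4 reads in any library.

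In the oxygen-evolving complex, the copies of a single subunit differed widely in spread. Oxygen-evolving enhancer protein 1 (PsbO) stabilises the manganese cluster. Zm00004b012312, its gene on chromosome 5, had 889, 909 and 982 reads in the B46 pools and 813, 694 and 774 in A12, a 1.31-fold range over the 6 libraries after scaling. All A12 values were below all B46 values, but the log2 fold change of -0.22 (SE 0.09) did not pass (edgeR adjusted p = 0.18). Zm00004b029326, the copy on chromosome 6, had 27, 44 and 28 reads in the B46 pools and 496, 11 and 172 in A12. Its A12 replicate 1 was 44.2 times replicate 2 (24.5 to 89.1), and its log2 fold change was 2.84 (SE 1.04, edgeR adjusted p = 0.13). Enhancer protein 3-1 (PsbQ), encoded by Zm00004b036972, had 114, 138 and 156 reads in the B46 pools and 410, 43 and 207 in A12.

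**Figure D4:**
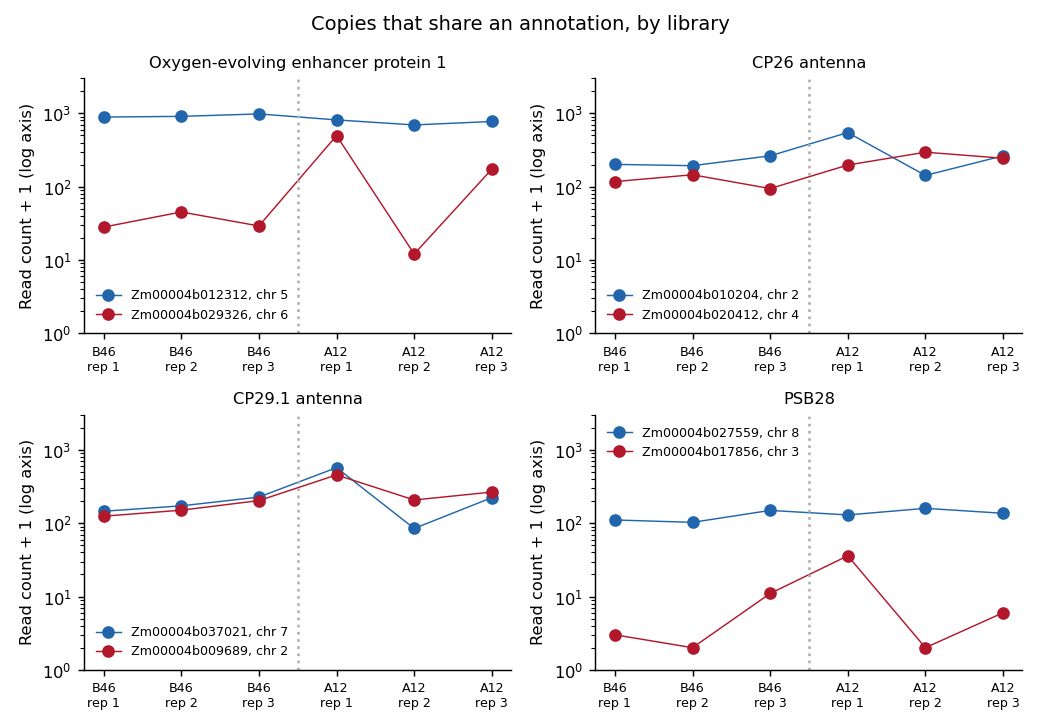
Read counts plus 1 (log axis) in the 6 libraries for 4 pairs of genes that share an annotation, chosen after their values were seen. The chromosome 5 gene of oxygen-evolving enhancer protein 1 ran between 694 and 982 reads while the chromosome 6 gene ran between 11 and 496; the CP26 gene on chromosome 4 is highest in A12 replicate 2.

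Assembly and repair factors, which help to build the photosystems and to renew damaged ones, were divided. HCF136, needed to build the photosystem II reaction centre and encoded by Zm00004b029196, had 251, 249 and 186 reads in the B46 pools and 215, 135 and 191 in A12. PSB28, encoded by Zm00004b027559, had 110, 102 and 149 reads in the B46 pools and 129, 159 and 136 in A12, with A12 replicate 2 the highest library. For both, the lines overlapped and the 6 libraries ranged by 1.75-fold and 1.70-fold. PSB27-H1, a factor of photosystem II repair encoded by Zm00004b001441, had 106, 113 and 138 reads in the B46 pools and 233, 27 and 75 in A12. Its second gene, Zm00004b033694, had a ratio of A12 replicate 1 to replicate 2 of 9.22, close to the 8.45 of the first. The median differences from B46 over the 6 genes at a mean of at least 1 CPM were 0.27, -0.52 and -0.27 in A12 replicates 1, 2 and 3.

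Among the stress-related members, PsbS (photosystem II 22 kDa protein 1, needed for the dissipation of excess light) is encoded by Zm00004b018328. It had 17, 26 and 42 reads in the B46 pools and 65, 0 and 24 in A12. Against a floor of 3 counts for replicate 2, A12 replicate 1 was at least 21.2-fold higher. The early light-inducible protein Zm00004b010685 had 120, 133 and 75 reads in the B46 pools and 231, 108 and 184 in A12, and the other, Zm00004b034914, had 1 read in A12 replicate 1 and 0 elsewhere. The Rubisco small subunit gene Zm00004b023331 had 35, 56 and 73 reads in the B46 pools and 97, 14 and 43 in A12, and its copy Zm00004b008365 had 3, 3 and 2 in B46 and 31, 2 and 10 in A12. The malic enzyme Zm00004b019117 had 665, 636 and 967 reads in the B46 pools and 1334, 732 and 856 in A12. Without it and the chromosome 5 gene of enhancer protein 1, the summed level of the other 82 members was 5.59 times as high in A12 replicate 1 as in replicate 2, against 3.98 with them. Both genes were left out with their values known. They ranged only 2.24-fold and 1.31-fold over the 6 libraries, so leaving them out raises the ratio.

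The members lay on all 10 chromosomes, with 8 on chromosome 5. Coordinates are those of the count table, and the sources used here name no build for them.

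Other genes of the chloroplast were read from 7 lists, whose medians lay between -0.28 and 0.19 in every A12 library. The members' order within A12 held for 38.1% (C4 leaf enzymes) to 55.6% (chlorophyll breakdown) of a list's genes at a mean of at least 1 CPM. Over all genes it held for 28.6%. For 9.52% (C4 leaf enzymes) to 44.4% (chlorophyll breakdown), A12 replicate 1 lay above all of B46 and replicate 2 below. The share over all genes was 9.5%. Over these lists, the C4 enzymes described further on included, edgeR called 15 genes. It called 0 of their genes without B46 replicate 2 or A12 replicate 3, where 29 and 32 had an unadjusted p under 0.05, so each chloroplast list call named here was lost in those fits; DESeq2 called 22 with all libraries. Chlorophyll synthesis had 0 of 33 tested genes higher and 1 lower by edgeR (2 and 4 when p was not adjusted) and 0 higher and 1 lower by DESeq2, and its median differences from B46 in A12 replicates 1, 2 and 3 were 0.12, -0.20 and -0.11. The gene that fell was Zm00004b011000, the ChlD subunit of magnesium chelatase, with 598, 628 and 612 reads in the B46 pools and 410, 332 and 345 in A12 (log2 fold change -0.69 with an SE of 0.11, adjusted p = 0.013). Named after its values were seen, protochlorophyllide reductase A (Zm00004b005914), which makes chlorophyllide in the light, had 130, 133 and 129 reads in the B46 pools and 226, 21 and 82 in A12, the same order as the members. Chlorophyll breakdown had 0 of 9 genes called by edgeR, 0 when p was not adjusted and 0 with DESeq2; its most abundant gene, the chlorophyll b reductase NYC1 (Zm00004b015641), had 378, 405 and 411 reads in the B46 pools and 369, 499 and 493 in A12.

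Thylakoid electron transport and ATP synthase had 2 of 51 genes higher and 4 lower. Ferredoxin-NADP reductase (Zm00004b007581) fell by 0.73 as a log2 fold change (SE 0.13, adjusted p = 0.017) and ferredoxin-3 (Zm00004b039476) rose by 1.28 (SE 0.23, adjusted p = 0.019), both by edgeR. Ferredoxin-1 (Zm00004b028306), named after its values were seen, had 22, 36 and 39 reads in the B46 pools and 120, 6 and 34 in A12. In the Calvin cycle, 1 of 25 genes rose and 1 fell: phosphoglycerate kinase (Zm00004b026520) by 0.52 (SE 0.10, adjusted p = 0.026) and transketolase (Zm00004b007840), which fell by 0.91 (SE 0.14, adjusted p = 0.012). The plastid ribosome had 0 of 48 genes called by edgeR, 5 when p was not adjusted and 1 with DESeq2, with 4175, 4187 and 4454 reads in the B46 pools and 4061, 3243 and 3406 in A12 for its most abundant gene, the ribosomal protein L19 (Zm00004b028361).

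Among regulators of photosynthesis genes, edgeR called 0 of 43 higher and 3 lower (2 and 8 when p was not adjusted), and DESeq2 called 2 of 59 higher and 3 lower. Without A12 replicate 2, edgeR called 2 higher and 3 lower. The blue-light receptor cryptochrome-1 (Zm00004b021866) fell by 0.81 (SE 0.12, edgeR adjusted p = 0.0085), and an unnamed transcript model annotated as Cryptochrome-2 fell by 0.98 (SE 0.19, adjusted p = 0.022). The third was Zm00004b015589, annotated as GLK2, a transcription factor known to activate antenna and chlorophyll synthesis genes, with 326, 345 and 494 reads in the B46 pools and 209, 112 and 151 in A12. It fell by 1.24 (SE 0.26, edgeR adjusted p = 0.027), with fewer reads in each A12 library than in any B46 library. Within A12 its reads followed the order of most members, highest in replicate 1 and lowest in replicate 2. A link between this gene and the members was not tested. Zm00004b010835, the plastid sigma factor sigF, named after its values were seen, had 282, 265 and 266 reads in the B46 pools and 413, 57 and 139 in A12.

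**Figure D5:**
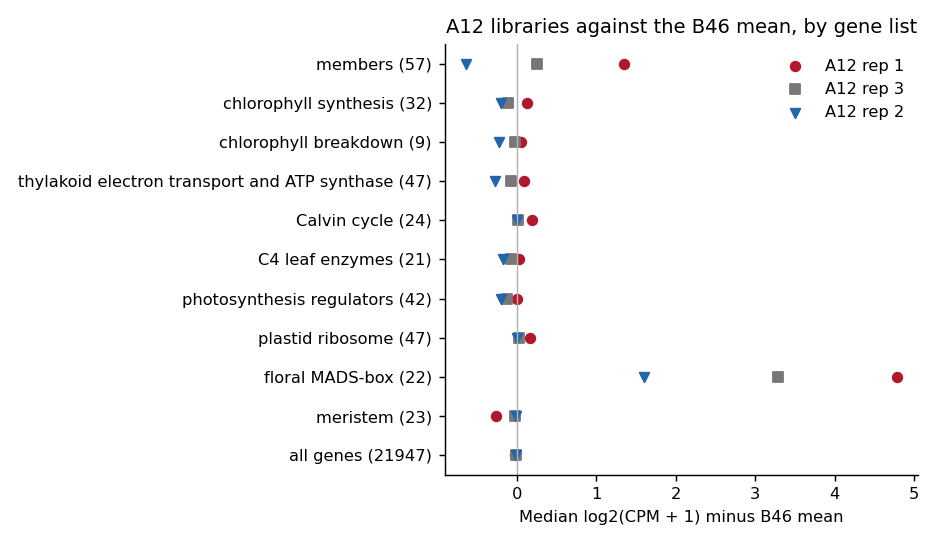
Median difference from the B46 mean, on the scale of log2(CPM + 1), in each A12 library for the members, 9 gene lists and all genes, with the number of genes at a mean of at least 1 CPM in parentheses. The members run from -0.64 to 1.35; the 7 chloroplast lists stay within -0.28 and 0.19, and the medians of the floral MADS-box genes run from 1.60 to 4.78.

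Markers of other tissues were read beside these values. C4 leaf enzymes, listed by annotation to look for mature leaf or husk, had 0 of 21 genes higher and 3 lower by edgeR (3 and 6 when p was not adjusted). DESeq2 called 2 of 26 higher and 4 lower, and edgeR without A12 replicate 2 called 2 of 21 higher and 4 lower. In all, 15 of the 41 genes listed had no read in any library, and the summed level was 949.8 to 1379 CPM in B46 and 1080 to 1193 CPM in A12. That was above the sum of the members, at 331.9 to 452.0 CPM in B46 and 254.1 to 1012 CPM in A12. Whether the list measures leaf or husk tissue in these ears was not tested. Phosphoenolpyruvate carboxykinase (Zm00004b034014) fell by 1.65 (SE 0.24, edgeR adjusted p = 0.0095) and phosphoenolpyruvate carboxylase 1 (Zm00004b021453) fell by 0.59 (SE 0.10, adjusted p = 0.016), while pyruvate, phosphate dikinase 1 (Zm00004b030561), a gene named after its values were seen, had 83, 76 and 50 reads in the B46 pools and 282, 74 and 131 in A12.

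Floral MADS-box genes, which mark spikelet and flower development, had 16 of 21 tested genes higher in A12 and 0 lower by edgeR, 17 higher and 0 lower by DESeq2, and 0 lower when p was not adjusted. The edgeR count was 8, 6, 8 and 8 without B46 replicate 1, 2 or 3 or A12 replicate 3. Their median differences from B46 were 4.78, 1.60 and 3.28 in A12 replicates 1, 2 and 3. The order of the A12 libraries was that of the members for 18 of 22 genes (81.8%). Zm00004b022334 had 1, 0 and 0 reads in the B46 pools and 373, 140 and 252 in A12, and Zm00004b014719 had 0, 8 and 0 in B46 and 769, 414 and 609 in A12. The median of these genes was thus above B46 in A12 replicate 2, where that of the members was below. The summed meristem markers were 1847, 1720 and 1400 CPM in B46 and 1347, 1953 and 1782 in A12, with knotted-1 (Zm00004b005000), which marks the meristem, at 8473, 8210 and 6875 reads in the B46 pools and 4203, 7847 and 6995 in A12. Of 24 tested meristem genes, 3 were higher by edgeR, among them Zm00004b005271 by 1.73 (SE 0.19, edgeR adjusted p = 0.0037) and Zm00004b005003 by 0.99 (SE 0.14, adjusted p = 0.0075). Without A12 replicate 3 edgeR called 1 meristem gene, and Zm00004b005003 missed the threshold (adjusted p = 0.054); without A12 replicate 1 it called 3 higher and 2 lower. The part of ear stage or tissue makeup in the members' spread was not tested.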

How the data were processed

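Polyadenylated RNA of 6 libraries was analysed, 3 per line, grouped and numbered by the sample titles. Per gene, the authors deposited unnormalised read counts and FPKM values. The submitters' processing notes name HISAT2 2.0.5 and DESeq2 1.20.0. The sources used here name no counter, genome build or strand setting, and reads of near-identical, overlapping or antisense genes may be mixed. Names are best Swiss-Prot matches, often to other species. The reference gene table shared 0 identifiers with the count table.

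The count test was that of edgeR 4.0.16 in R 4.3.3: default expression filter, TMM, two-sided quasi-likelihood F-test without covariates, Benjamini-Hochberg adjustment over all 22741 genes, calls under 0.05. Adjusted p-values without a named tool are from this fit. CPM are TMM-scaled counts; orders and medians use genes with a mean of at least 1 CPM and log2(CPM + 1). Intervals beside ratios between 2 libraries are 95% exact intervals, given for some single genes, and ratios of sums carry none. Alternatives were RLE scaling, DESeq2 1.42.0, no filter, each library left out, a replicate block, and limma 3.58.1 on log2(FPKM + 0.1) or log2(FPKM + 1).

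The members and lists were chosen with earlier results of these data known. Values are given for each member called, the 3 of highest mean CPM per role, and up to 2 called genes per list (or, with none called, the most abundant); other genes were named after their values were seen.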

Additional observations from a re-analysis of the deposited data

How the results depend on the processing

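Scaling by RLE, omitting the filter and limma on FPKM kept 1 member called higher and 0 lower. Counts of called genes moved more: 2242 genes were called by the main test, 3511 by DESeq2 and 401 to 4446 with a library left out; called higher were 6 members by DESeq2 and 0 to 12 with a library left out, and called lower 0 to 1. The 15 called genes of the 7 chloroplast lists became 0 to 32 with a library left out, so which of them passed depended on the libraries included. Fold changes moved less in 3 of the named list genes. With a library left out, the log2 fold change ran from -0.8 to -0.63 for Zm00004b011000 and from -0.87 to -0.66 for Zm00004b007581. For Zm00004b039476 it ran from 1.02 to 1.45. Deviations of same-numbered libraries from their line means correlated at r = -0.12, -0.0136 and 0.0054. No label pairs these libraries, and with 3 libraries per line such values cannot exclude pairing. With the replicate block, 967 genes and 6 list genes were called.

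The sum in A12 replicate 1, 2.65 times the B46 mean, was 2.83 times from FPKM and 2.48 to 2.91 times with a B46 library left out. With a pseudocount of 0.1 the medians of A12 replicates 1 and 2 were 1.59 and -1.23.

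Over 38 named genes and 13 alternative fits, 422 of 494 values kept direction and call. The call was lost in 39 and gained in 5, and 28 changed sign, all in genes without a call. The 38 were the tested genes taken by the rule above (called, or most abundant per role or list). Genes named after their values were seen were left out of this count. Under the block the log2 fold change was -0.05 for Zm00004b036722, -0.13 for Zm00004b037579 and -0.52 for Zm00004b018328. By limma it was -0.25, -0.19 and -0.25 for Zm00004b037579 and -0.91, -0.15 and -0.91 for Zm00004b018328 (pseudocount 0.1, pseudocount 1, no filter). With a library left out it ran from -0.97 to 0.25 (Zm00004b021537), -0.10 to 0.83 (Zm00004b005514), -0.10 to 1.38 (Zm00004b011144), -0.67 to 0.96 (Zm00004b036722), -0.07 to 0.94 (Zm00004b010204), -0.20 to 1.19 (Zm00004b037021), -0.68 to 0.83 (Zm00004b037579), -0.48 to 1.46 (Zm00004b020728), -0.03 to 1.53 (Zm00004b024968), -0.89 to 0.41 (Zm00004b023331), -1.18 to 0.43 (Zm00004b001441), -0.09 to 1.23 (Zm00004b036972) and -1.20 to 0.70 (Zm00004b018328). The cause was not tested. Members with few reads are limited by counting error.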
